A study of Mus musculus with 13 samples.

Results

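Levels of 7 interferon-inducible GTPases were measured in mouse duodenum, the first stretch of the small intestine. The genes were Ifi47 (also called Irgd), Igtp (Irgm3), Irgm1 and Iigp1 (Irga6) of the immunity-related GTPases, and Gbp2, Gbp3 and Gbp8 of the guanylate-binding proteins. A probe set, the group of short probes that reads 1 transcript, was taken where the array's annotation gave it exactly 1 gene symbol equal to one of these names. The 7 genes had 9 such probe sets among the 22690 of the array, and each gene was represented by the one whose level averaged highest across the 13 arrays. They are therefore 7 of the 12393 genes tested. Wild-type and mutant mice of mixed strain background were fed 1 of 3 diets, normal, high-fat, or high-fat together with butyrate, a fatty acid that gut bacteria release when they ferment fibre. Each diet began at 5 weeks of age and lasted 22 weeks. The series title sets the mutation and the high-fat diet side by side in intestinal tumour formation, so the genotype and diet contrasts ask what each does to the duodenum. The normal diet had 2 wild-type and 3 mutant arrays, the high-fat diet 2 and 2, and the high-fat diet with butyrate 1 and 3. The sources used here give no allele, promoter or driver line for the mutation, and do not say whether animals were pooled.

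Both protein families are made in response to interferon, above all interferon gamma, which T cells and natural killer cells release and which acts through the kinases Jak1 and Jak2. Immunity-related GTPases and guanylate-binding proteins gather on the membranes around intracellular microbes and help to break them. Igtp and Irgm1 belong to the regulatory class, which sits on the cell's own membranes and restrains effector members such as Iigp1. In the gut, lymphocytes that lie within the epithelium are a known source of interferon gamma, and the epithelium answers it.

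All levels below are the authors' RMA values on a log2 scale, on which 1 unit is a 2-fold difference, and levels of different genes are not set against each other because their probes differ. Array medians lay between 6.04 and 6.14. The epithelial markers Vil1 and Fabp1 were high on every array (11.83 to 12.32 and 13.53 to 13.78), the pattern of small intestinal tissue. Transcripts of acinar pancreas, the enzyme-making tissue next to the duodenum, varied widely, with a list mean from 5.05 to 13.58. By their identifiers the arrays of each diet form a series of their own. Diet and array series therefore cannot be told apart, while genotype is compared within a series. That replicates were separate animals rests on the design text alone, which speaks of mice. The p-values therefore rest on the spread between these samples, which may be technical.

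Promoter sequence is shown first because 4 members carry the same short motif next to their start. RefSeq windows of build GRCm38.p6, from 250 bases before to 50 bases after a gene's start, were found for 5 of the 7 genes (6 windows). They were searched on both strands for GAAANNGAAA, the core of the element that interferon regulatory factors bind. It occurred in 4 of the 5 genes with a window (Gbp2, Gbp3, Igtp and Irgm1), against 3.99% of 27025 genes and 3.44% of 32851 windows. It also occurred in 6 of the 7 other GTPases of these families with a window, so it does not set the members apart. No match was found in the Ifi47 window, which says only that these letters are not there. In the stretches below, read 5′ to 3′ on the gene's strand and ending at or before the start, capitals mark the matches.
Gbp3, chr3:142559959-142560043, plus strand: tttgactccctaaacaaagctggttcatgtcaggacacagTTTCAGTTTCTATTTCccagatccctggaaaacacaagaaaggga
Gbp2, chr3:142620564-142620653, plus strand: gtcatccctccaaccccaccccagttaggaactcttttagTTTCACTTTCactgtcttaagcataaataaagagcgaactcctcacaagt
Irgm1, chr11:48871421-48871490, minus strand: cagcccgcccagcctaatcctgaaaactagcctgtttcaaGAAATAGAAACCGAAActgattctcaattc
Igtp, chr11:58199482-58199555, plus strand: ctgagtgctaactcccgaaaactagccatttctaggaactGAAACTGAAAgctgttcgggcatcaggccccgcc
The first match began 45 bases before the start in Gbp3, 59 in Gbp2, 30 in Irgm1 and 34 in Igtp. Gbp3 and Irgm1 each held 2 matches that overlap, and in Gbp2 and Gbp3 the motif lay on the opposite strand. Gbp3 and Gbp2 are near neighbours on chromosome 3 with Gbp2b between them. Igtp, Irgm1 and Ifi47 lie on chromosome 11, with 7 protein-coding genes between Irgm1 and Ifi47.

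Among the immunity-related GTPases, mutant arrays sat below wild-type arrays on the normal and high-fat diets. Ifi47, an effector member, read 8.60 and 9.93 on the wild-type arrays of the normal diet and 6.98, 7.06 and 7.03 on the mutant arrays. With the high-fat diet its levels were 8.90 and 8.57 in wild type and 7.48 and 7.29 in mutants. With butyrate the wild-type array gave 8.97 and the mutant arrays 8.61, 7.03 and 8.50. Mutant butyrate arrays 1 and 3 thus lay close to the wild-type array, whereas array 2 lay at the level of the mutants on normal diet. Igtp, a regulatory member, read 8.48 and 10.73 in wild type on normal diet against 7.37, 7.26 and 7.10 in mutants. Its high-fat levels were 9.50 and 8.87 against 8.12 and 8.44, and its butyrate levels 8.58 against 8.42, 7.73 and 8.25. The 8 mutant arrays all lay below the 5 wild-type arrays for Igtp, the only member of which this held over the 3 diets together. The share of all genes with this pattern was not counted, so nothing is read from it.

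Irgm1, the second regulatory member, read 7.04 and 9.01 in wild type and 6.68, 6.66 and 6.26 in mutants on normal diet. High-fat levels were 7.90 and 7.57 against 6.84 and 7.22, and butyrate levels 7.83 against 7.21, 6.47 and 7.11. Its wild-type array 1 on normal diet was lower than any other wild-type array and lay nearer to the mutants of that diet than to array 2. Iigp1, an effector that coats the vacuole of Toxoplasma, read 5.99 and 7.80 against 5.45, 5.30 and 5.68 on normal diet. On high-fat diet it read 6.77 and 6.83 against 5.99 and 6.11, and with butyrate 6.02 against 6.06, 5.38 and 6.02. The butyrate groups of Iigp1 overlapped on the probe set used, with 1 mutant array above and another level with the wild-type array.

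The guanylate-binding proteins also read lower in mutants on the normal and high-fat diets. Gbp2, which is recruited to microbial vacuoles, read 7.06 and 8.34 in wild type and 6.29, 6.38 and 6.31 in mutants on normal diet. Its high-fat levels were 6.56 and 6.12 against 5.92 and 5.92, and its butyrate levels 7.23 against 6.96, 6.30 and 6.83. Here the genotypes did not overlap within a diet, but the wild-type high-fat arrays lay at the levels of mutants on the other diets. Gbp3 read 5.93 and 6.40 against 5.78, 4.97 and 5.02 on normal diet, 5.95 and 6.05 against 5.31 and 5.24 on high-fat diet, and 6.67 against 6.22, 5.73 and 6.44 with butyrate. Gbp8 read 6.16 and 5.60 against 4.72, 4.39 and 4.28 on normal diet, 4.59 and 4.69 against 3.83 and 3.55 on high-fat diet, and 6.53 against 6.17, 4.81 and 6.29 with butyrate. Both Gbp3 and Gbp8 were highest on the wild-type butyrate array, while the other 5 members were highest on wild-type normal-diet array 2.

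**Figure D1:**
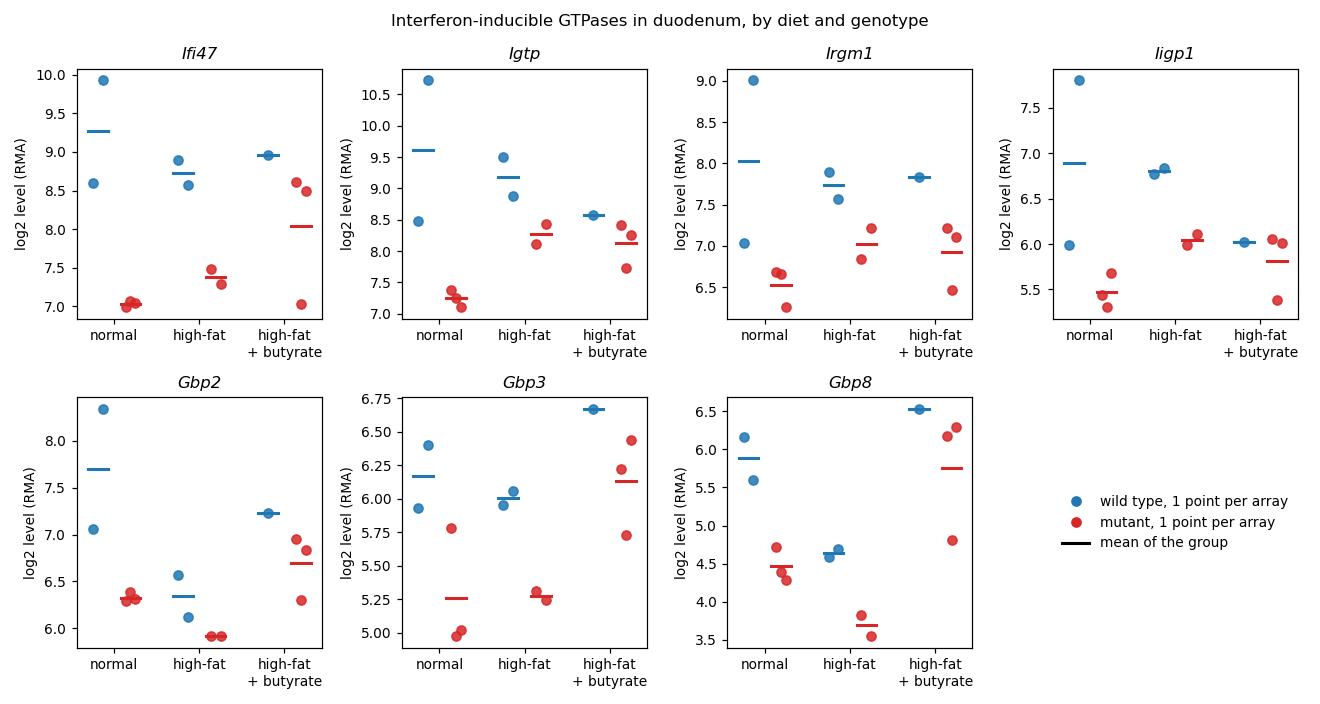
Level of each of the 7 genes on a log2 scale (vertical axis) by diet (horizontal axis), with 1 point per array (blue, wild type, 2, 2 and 1 arrays; red, mutant, 3, 2 and 3 arrays) and a bar at the group mean; the vertical axes differ between genes and do not start at 0. On the normal and high-fat diets every red point lies below every blue point of the same diet, and with butyrate 1 red point of Iigp1 lies above the blue one.

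The order of the 6 group means differed between genes. For all 4 immunity-related GTPases the normal-diet wild type was highest and the normal-diet mutants lowest (Ifi47 from 9.27 to 7.03, Igtp from 9.61 to 7.24, Irgm1 from 8.02 to 6.53, Iigp1 from 6.90 to 5.48). Gbp2 was also highest there and Gbp3 also lowest in normal-diet mutants, whereas Gbp2 and Gbp8 were lowest in high-fat mutants (5.92 and 3.69). For Gbp8 the descending order was wild type with butyrate (6.53), wild type on normal diet (5.88), mutants with butyrate (5.76), wild type on high-fat diet (4.64), mutants on normal diet (4.46) and high-fat mutants (3.69). Arrays of neighbouring groups in that order overlapped between ranks 2 and 3 and between ranks 4 and 5. Most neighbouring groups of the other members overlapped too. The arrays were apart below rank 3 for Irgm1, below rank 2 for Iigp1, and below ranks 2 and 5 for Ifi47. They were apart below ranks 2, 3 and 5 for Igtp, below ranks 2 and 5 for Gbp2, and below ranks 1 and 4 for Gbp3.

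The 2 wild-type arrays on normal diet stood apart for most members. Array 2 exceeded array 1 by 2.25 for Igtp, 1.97 for Irgm1, 1.82 for Iigp1, 1.33 for Ifi47, 1.28 for Gbp2 and 0.47 for Gbp3, and differed by -0.56 for Gbp8. The range of the mutant butyrate arrays was wider than this gap for Ifi47, Gbp3 and Gbp8, and that of the mutant normal-diet arrays for Gbp3. By standard deviation, Ifi47 spread less in butyrate mutants (0.88) than in normal-diet wild type (0.94). In the mean of the 7 members, each centred over the arrays, these 2 arrays each held 28.7% of the squared deviations from group means and mutant butyrate array 2 held 25.8%. The acinar pancreas list mean was 11.55 on wild-type array 2 and 6.05 on array 1. It was 11.34 on mutant butyrate array 2 and 6.52 and 5.05 on arrays 1 and 3. So the high wild-type array and the low mutant array were both the acinar-rich ones of their group, with members displaced in opposite directions. The part of acinar RNA in either displacement was not tested.

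Mutant mice had lower levels of all 7 GTPases on average, with differences from -0.75 to -1.60 on the log2 scale in a limma model of the 13 arrays that also fits diet. Ifi47 fell by 1.60 ± 0.30 (SE; 3.04-fold lower, adjusted p = 0.0412), Gbp8 fell by 1.10 ± 0.23 (2.14-fold, adjusted p = 0.0465) and Gbp3 fell by 0.75 ± 0.16 (1.69-fold, adjusted p = 0.0466). The other 4 had differences of -1.38 ± 0.36 (Igtp), -1.08 ± 0.28 (Irgm1), -0.88 ± 0.27 (Iigp1) and -0.84 ± 0.22 (Gbp2), with adjusted p from 0.0744 to 0.115. Thus 3 of 7 members passed the threshold of 0.05 as lower, against 0.597% of all genes. Members and gene lists were chosen with earlier results of these data known. Here and below, such shares therefore describe the genes and do not test them as a set. The median difference of the members was -1.08 and that of all genes 0.01. These calls were marginal, since no member passed when any 1 of the 9 arrays on normal or high-fat diet was left out (0 of 7 each time, with 2 to 4 genes called in all). Members passed in 4 of 13 such fits, those that left out a butyrate array. In a bulk sample, fewer cells that express a gene and less of its RNA per cell cannot be told apart.

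Without the 4 butyrate arrays the differences were larger. Ifi47 fell by 1.84 ± 0.26 (3.57-fold, 95% confidence interval -2.40 to -1.27, adjusted p = 0.00497) and Gbp8 fell by 1.20 ± 0.16 (2.30-fold, -1.56 to -0.85, adjusted p = 0.00418). Igtp fell by 1.70 ± 0.42 (3.25-fold, adjusted p = 0.0498) and Gbp3 fell by 0.83 ± 0.17 (1.77-fold, adjusted p = 0.0279). Irgm1 (-1.14), Iigp1 (-1.12) and Gbp2 (-0.94) did not pass, with adjusted p of 0.0923, 0.0679 and 0.071. The 4 calls of 7 compare with 2.39% of all genes called lower. Ifi47 and Gbp8 passed in each of 9 fits that left out 1 array, Igtp in 3 and Gbp3 in 2. The count was 2 without mutant normal-diet array 2 or 3, wild-type high-fat array 1, or mutant high-fat array 1 or 2.

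Within single diets, the estimates lay furthest from 0 on the normal diet, an order that for Irgm1, Iigp1 and Gbp3 rests on wild-type array 2. There the estimates ran from -2.36 ± 0.49 for Igtp and -2.24 ± 0.44 for Ifi47 to -0.91 ± 0.26 for Gbp3, with Irgm1 at -1.49, Iigp1 at -1.42, Gbp8 at -1.42 and Gbp2 at -1.37. Limma called 0 of 7 members (adjusted p from 0.134 to 0.192) against 0.0161% of genes called lower, although 7 of 7 had an unadjusted p under 0.05, as did 1575 of all genes. Every mutant array lay below every wild-type array for 7 of 7 members, as for 12.4% of genes. Without mutant butyrate array 2 the count called was 2, against 111 of all genes. Without wild-type array 1 of this diet the estimates reached -3.49 for Igtp. Without wild-type array 2 they were -0.50 for Irgm1, -0.51 for Iigp1 and -0.68 for Gbp3. These lie nearer to 0 than the high-fat estimates of the same genes (-0.71, -0.75 and -0.73).

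On the high-fat diet the genotype differences were -1.35 ± 0.48 for Ifi47, -0.95 ± 0.40 for Gbp8, -0.91 for Igtp, -0.75 for Iigp1, -0.73 for Gbp3, -0.71 for Irgm1 and -0.43 for Gbp2. None of 7 passed in limma (adjusted p from 0.332 to 0.681), against 0.0161% of genes called lower, and 3 of 7 had an unadjusted p under 0.05, as did 1406 of all genes. Mutant and wild-type arrays again did not overlap for 7 of 7 members, as for 20.2% of genes. Over both diets the arrays were apart in this direction for all 7, as for 5.82% of genes. With butyrate the estimates were nearer to 0 than on high-fat diet alone for 5 members, all but Irgm1 and Gbp2, and ran from -0.92 ± 0.56 for Ifi47 and -0.90 ± 0.56 for Irgm1 to -0.20 ± 0.51 for Iigp1. Here 0 of 7 passed in limma, against 0% of all genes, and 0 had an unadjusted p under 0.05, against 749 of all genes. The mutant arrays lay below the single wild-type array for 6 members, as they did for 28% of genes. Iigp1 was the exception on the probe set used.

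**Figure D2:**
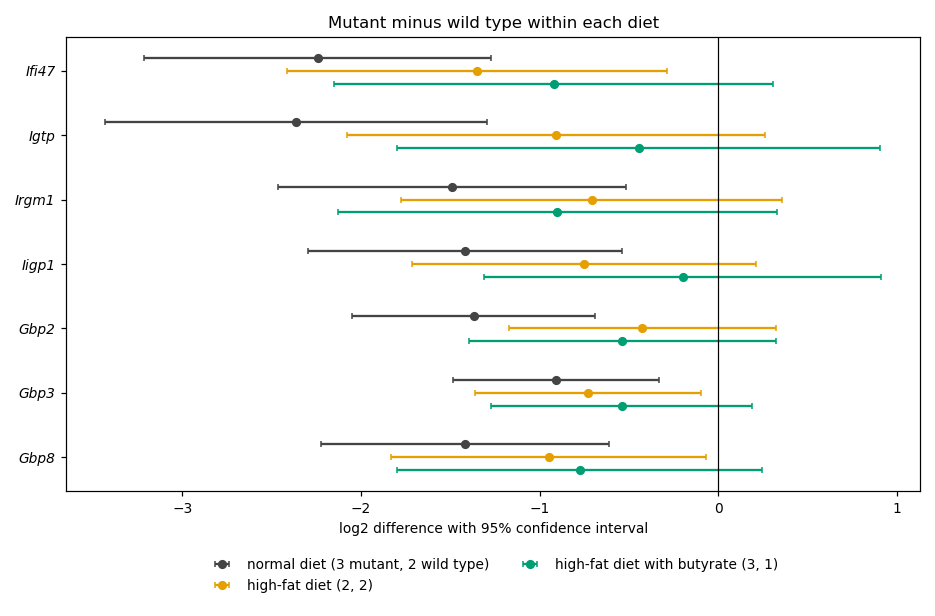
Mutant minus wild-type difference (horizontal axis, log2) for each gene within the normal diet (grey, 3 mutant and 2 wild-type arrays), the high-fat diet (orange, 2 and 2) and the high-fat diet with butyrate (green, 3 and 1); points are limma estimates and bars their 95% confidence intervals, not adjusted for the number of genes. All 21 estimates lie left of 0, from -2.36 (Igtp, normal diet) to -0.20 (Iigp1, butyrate), and the butyrate bars all cross 0.

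Whether the genotype difference itself changed with diet was tested as an interaction. From normal to high-fat diet it moved toward 0 by 1.45 ± 0.72 for Igtp, 0.94 ± 0.46 for Gbp2, 0.89 ± 0.66 for Ifi47, 0.78 ± 0.66 for Irgm1, 0.67 ± 0.59 for Iigp1, 0.47 ± 0.54 for Gbp8 and 0.18 ± 0.39 for Gbp3. Without wild-type normal-diet array 2 this shift turned sign for Irgm1 (-0.21), Iigp1 (-0.24) and Gbp3 (-0.05). In the full fit limma called 0 of 7 (adjusted p from 0.915 to 0.975), against 0.00807% of genes. An unadjusted p under 0.05 was found for 0 members, against 621 of all genes. Adding butyrate to the high-fat diet gave interactions between -0.19 (Irgm1) and 0.55 (Iigp1), with 0 of 7 called or under 0.05 unadjusted, against 0.00807% of genes called. Butyrate against the mean of the other diets gave 0.20 (Irgm1) to 1.19 (Igtp), again with 0 of 7 by either count, against 0.00807%. The 95% interval for Igtp in the first of these tests ran from -0.13 to 3.04, which covers no change as well as a difference larger than the estimate.

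Differences between diets are given within the limit that each diet is its own array series. In wild type, Gbp2 fell by 1.35 ± 0.34 from normal to high-fat diet (2.56-fold, adjusted p = 0.0282). It was the 1 member of 7 called lower, against 5.42% of genes. Gbp8 differed by -1.24 ± 0.40 (adjusted p = 0.0722), and the other 5 by -0.53 to -0.10. The Gbp2 call was lost without wild-type normal-diet array 2 (-0.71) and without either wild-type high-fat array, 0 members passing in those fits. Without mutant butyrate array 2 the count was 2, against 1522 of all genes. Leaving out wild-type normal-diet array 2 also turned the sign for 5 members, to 0.81 for Iigp1, 0.71 for Igtp, 0.70 for Irgm1, 0.13 for Ifi47 and 0.07 for Gbp3. The direction of the diet difference in wild type therefore rests on that array for them.

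In mutants no member passed between the normal and high-fat diets. High-fat minus normal diet was 1.04 ± 0.49 for Igtp, 0.57 ± 0.40 for Iigp1, 0.50 ± 0.44 for Irgm1 and 0.36 ± 0.44 for Ifi47, against -0.78 ± 0.37 for Gbp8, -0.41 ± 0.31 for Gbp2 and 0.02 ± 0.26 for Gbp3. Limma called 0 of 7 (adjusted p from 0.171 to 0.976), whereas 17.7% of all genes passed in either direction, and 0 of 7 had an unadjusted p under 0.05, against 3923 of all genes. The high-fat arrays lay above the normal-diet arrays for all 4 immunity-related GTPases, as for 23.7% of genes. They lay below them for Gbp2 and Gbp8, a direction for which the share of all genes was not counted. On a second probe set of Gbp2 the arrays overlapped, with 5.81 and 5.79 on high-fat diet against 5.85, 5.93 and 5.71 on normal diet. With the spread taken from these 2 groups alone, 5 members passed, against 2876 of all genes. They were Ifi47, Igtp, Iigp1, Gbp2 and Gbp8. Without mutant butyrate array 2, 1 member passed, against 2331 of all genes.

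Among the members, the guanylate-binding proteins read higher with butyrate on top of the high-fat diet. In mutants Gbp8 rose by 2.07 ± 0.37 (4.19-fold, 95% interval 1.26 to 2.87, adjusted p = 0.00294) and Gbp3 by 0.86 ± 0.26 (1.81-fold, adjusted p = 0.0386). Gbp2 differed by 0.78 ± 0.31 (adjusted p = 0.0983) and Ifi47 by 0.66 ± 0.44 (adjusted p = 0.322). Igtp (-0.15), Irgm1 (-0.10) and Iigp1 (-0.23) had differences near 0, with standard errors of 0.49, 0.44 and 0.40. The 2 calls of 7 compare with 12.9% of genes called higher. All butyrate arrays lay above all high-fat arrays for Gbp2, Gbp3 and Gbp8, as for 27.2% of genes. Gbp8 passed in each of 13 fits without 1 array and Gbp3 in 7 of them. The count was 4 without mutant butyrate array 2, against 3041 of all genes. It was 1 without mutant butyrate array 1 (1820 of all genes) or 3 (2002).

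In wild type the single butyrate array gave Gbp8 a rise of 1.89 ± 0.49 (3.72-fold, adjusted p = 0.0273), 1 call of 7 against 9.55% of genes called higher. Its spread was assumed to be that of the other groups. Gbp2 differed by 0.89 ± 0.42, Gbp3 by 0.67 ± 0.35, Ifi47 by 0.23 and Irgm1 by 0.09, while Igtp (-0.61) and Iigp1 (-0.78) lay lower. Without either wild-type high-fat array 0 members passed, and without either wild-type normal-diet array 2 did. Set against mutants on normal diet, mutants on high-fat diet with butyrate gave 1.29 ± 0.33 for Gbp8 (adjusted p = 0.0797), 0.87 ± 0.23 for Gbp3 (adjusted p = 0.0915), 1.02 ± 0.40 for Ifi47 and 0.34 to 0.89 for the other 4. Limma called 0 of 7, against 1.57% of genes in either direction, and 3 of 7 had an unadjusted p under 0.05, as did 2119 of all genes. The count was 3 without mutant butyrate array 2 and 1 without mutant normal-diet array 1, against 627 and 64 of all genes.

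**Figure D3:**
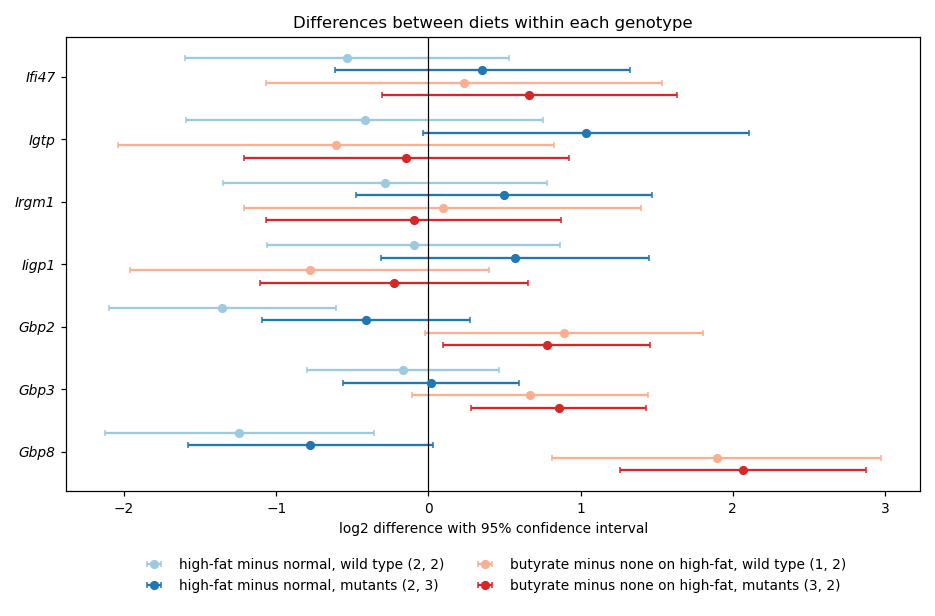
Differences between diets (horizontal axis, log2) for each gene, as high-fat minus normal diet (blue) and high-fat with butyrate minus high-fat (red), in wild type (pale) and in mutants (dark), with array numbers in the legend; points are limma estimates and bars 95% confidence intervals, not adjusted for the number of genes. Gbp8 stands at the right for butyrate (1.89 in wild type, 2.07 in mutants), and both comparisons share the high-fat arrays, so one low group moves them in opposite directions.

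Across the 13 arrays some members followed each other more closely than others. Igtp, Irgm1 and Iigp1 correlated with each other at r = 0.91 to 0.96 (Spearman's rho 0.89 to 0.95), and without wild-type normal-diet array 2 at 0.81 to 0.91. Ifi47 correlated with these 3 at 0.83 to 0.89, and nearly as closely with Gbp3 (0.81) and Gbp2 (0.80). Gbp8 followed Gbp3 (r = 0.83, rho 0.84) and Gbp2 (r = 0.72, rho 0.77), but Igtp and Iigp1 little (0.29 and 0.16). Without wild-type normal-diet array 2 the correlation of Gbp2 was 0.94 with Gbp8 and 0.04 with Iigp1. The arrays share groups and normalization, so these are descriptions of 13 points.

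Second probe sets were available for Gbp2 and Iigp1. That of Gbp2 correlated with the one used at 0.945 and gave mutant minus wild-type differences of -1.72 with the normal and -0.51 with the high-fat diet. For Iigp1 the correlation was 0.857 and the differences -1.54 and -0.48. Both thus had the same sign in these comparisons as the probe sets used, which gave -1.37 and -0.43 for Gbp2 and -1.42 and -0.75 for Iigp1. With butyrate the probe sets of Iigp1 parted. The second read 5.92 in wild type against 5.87, 4.79 and 5.32 in mutants, without overlap. That wild-type array lay above the wild-type high-fat arrays (5.75 and 5.36), not below them. The mutant high-fat arrays read 5.01 and 5.14, within the range of the mutant butyrate arrays. The probe set used for Gbp2 is of a type that may also match other transcripts. The guanylate-binding protein genes are close relatives, and how far their probes share signal was not tested.

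Of 19 other GTPases of these families and the related Mx proteins, 6 were measured. Gbp2b and Gbp7, the chromosome 3 neighbours of Gbp3, were lower in mutants over 13 arrays, with differences of -0.90 ± 0.20 (adjusted p = 0.0477) and -0.84 ± 0.18 (adjusted p = 0.0465), and over the 9 arrays without butyrate, with -0.88 each (adjusted p = 0.0161 and 0.0122). Irgm2, the neighbour of Igtp, had a 9-array difference of -1.17 ± 0.38 (adjusted p = 0.122) and Gbp6 one of -0.79 ± 0.26 (adjusted p = 0.126). The antiviral GTPases Mx1 (0.17 ± 0.11) and Mx2 (-0.16 ± 0.13) did not pass. With butyrate in mutants, Gbp2b rose by 1.23 ± 0.33 (adjusted p = 0.0228), Gbp7 by 0.95 ± 0.28 (adjusted p = 0.033) and Mx1 by 0.59 ± 0.16 (adjusted p = 0.0253). Irgm2 differed by -0.11 there, on the side of Igtp, Irgm1 and Iigp1. Gbp6 did not rise with Gbp8, reading 4.98, 4.64 and 5.03 in mutants with butyrate against 4.94 and 4.93 on high-fat diet alone. In wild type Gbp6 read 5.41 with butyrate and 6.12 and 5.05 without.

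The genes whose levels most resembled the mean of the 7 members over the 13 arrays were, by Pearson's r, H2-Ab1, H2-DMa, Irgm2, Cstf2t, Psmb8, Cxcl9, Prss12, Ido1, Tifa and Gbp7. Their r ran from 0.899 to 0.879 and their rho from 0.692 to 0.918. Without wild-type array 2 and mutant array 3 of the normal diet, the 2 farthest from the median, r was 0.74 to 0.95. Only 3 of these 10 were also among the 10 highest by rho. Once the 6 group means were removed, the 10 most alike were Tnfsf10 (r = 0.976), G3bp2, Sgpp1, Zfp24, Tcf4, Nucks1, Smad4, Dek, Tslp and Samd4 (0.957). Only 1 of these 10 was also among the 10 highest by rho. None of them was in the first set, and this likeness describes mainly the 3 arrays that carry the spread within groups.

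Most measured genes of the interferon gamma pathway did not pass the genotype test. Of 33 listed genes 31 were measured. Ifng, the cytokine itself, read low everywhere, between 2.46 and 3.24, so a change at that level may not be measurable. Its 9-array genotype difference was -0.16 ± 0.14 (adjusted p = 0.604). The receptor chains Ifngr1 (0.18) and Ifngr2 (0.20), the kinases Jak1 (0.25) and Jak2 (0.04) and the factors Irf1 (-0.31), Irf8 (-0.37) and Irf9 (-0.18) did not pass either, with adjusted p from 0.119 to 0.869. Of the 31, 14 had an unadjusted p under 0.05, as did 2280 of all genes. Among these 14, Ifngr1, Ifngr2, Jak1 and Tyk2 were higher in mutants. By adjusted p, 5 of the 31 were called lower (from 0.0152 to 0.0442), against 2.39% of all genes. The 5 were the interferon-induced chemokines Cxcl9 (-1.26) and Cxcl10 (-0.92), Ciita (-1.07), the master factor of MHC class II genes, Il12rb1 (-0.54), an interleukin-12 receptor chain, and Il18 (-0.40), a cytokine that promotes interferon gamma release. Over 13 arrays only Il18 passed (-0.42 ± 0.07, adjusted p = 0.0355). The list median was -0.18 over 9 arrays, against -1.14 for the GTPases and 0.01 for all genes.

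In mutants Jak1, Ifngr2, Stat2, Stat3, Irf1 and Irf2 were higher on high-fat than on normal diet (by 0.76, 1.06, 1.18, 0.50, 0.72 and 0.84; adjusted p from 0.000844 to 0.00806), while the inhibitors Socs3 (-1.49) and Ptpn2 (-0.66) were lower. These 8 calls of 31 and the 0 of 7 members compare with 17.7% of all genes in either direction. With butyrate added in mutants, 4 of the 31 rose (Ptpn2, Il12rb1, Il18 and Il18r1) and 5 fell (Jak1, Ifngr2, Stat3, Irf2 and Batf2), against 12.9% of all genes called higher and 8.78% called lower.

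Markers of immune cells were lower in mutants in the 9-array comparison in which members were. Over those 9 arrays without butyrate, 10 of 10 macrophage and dendritic cell markers were lower in mutants (median -0.96, Lyz2 -1.57, Tyrobp -1.10), 7 of 11 T and natural killer cell markers were (median -0.87, Cd3g -0.95, Ccl5 -0.96), and 1 of 5 B and plasma cell markers was, against 2.39% of all genes. Over 13 arrays the counts were 4 of 10, 0 of 11 and 0 of 5, against 0.597%. The macrophage list mean was 8.40 to 8.72 in wild type and 7.54 to 7.74 in mutants on normal diet, 8.31 to 8.55 and 6.94 to 7.63 on high-fat diet, and 8.32 and 7.69 to 8.37 with butyrate. The T and natural killer list mean was 7.54 to 7.62 and 6.52 to 6.78, 6.64 to 7.19 and 6.16 to 6.54, and 6.66 and 6.31 to 7.38 in the same order. On both lists, mutant butyrate array 2 was the lowest of its group, as for 7 of 7 members. Elsewhere the lists and the members shared a sign in some comparisons and parted in others. On high-fat diet, 10 of 10 macrophage and 10 of 11 T and natural killer markers had a genotype estimate below 0, as did 7 of 7 members. With butyrate, 7 of 10 macrophage markers and 7 of 7 members were below 0. There 10 of 11 T and natural killer markers were above 0 (median 0.18). From normal to high-fat diet in mutants, 10 of 10 macrophage markers were below 0, as were Gbp2 and Gbp8. The immunity-related GTPases were above 0 in that comparison. Wild-type normal-diet array 2, high for most members, had a lower macrophage mean (8.40) than array 1 (8.72). Its T and natural killer mean was 7.62, against 7.54 on array 1. No marker was at 0, a value that this log2 scale does not reach.

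When butyrate was added in mutants, 6 of 10 macrophage markers rose (median 0.82, Csf1r 1.30) beside Gbp3 and Gbp8, against 12.9% of all genes called higher, and 0 of 11 T and natural killer markers passed. In wild type, with 1 butyrate array, 8 of 10 macrophage markers (median -0.15) and 9 of 11 T and natural killer markers (median -0.32) were below 0. There 5 of 7 members, Gbp2, Gbp3 and Gbp8 among them, were above 0. Of 9 epithelial markers measured, 0 were lower and 1, the iron reductase Cybrd1, was higher in mutants over the 9 arrays, against 2.24% of all genes called higher. None of 8 acinar markers passed for genotype over 9 arrays. The acinar list mean overlapped between genotypes on normal diet (6.05 and 11.55 in wild type, 5.96 to 13.58 in mutants). On high-fat diet it did not, with 11.69 and 13.52 in wild type against 11.12 and 5.31 in mutants, and with butyrate the wild-type array read 12.31 against 5.05 to 11.34. The GTPase estimates were thus below 0 on normal diet, where those of 8 of 8 acinar markers were above 0. They were also below 0 on high-fat diet, where those of 8 of 8 were below 0. The part of immune cell and acinar content in the GTPase differences was not tested.

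**Figure D4:**
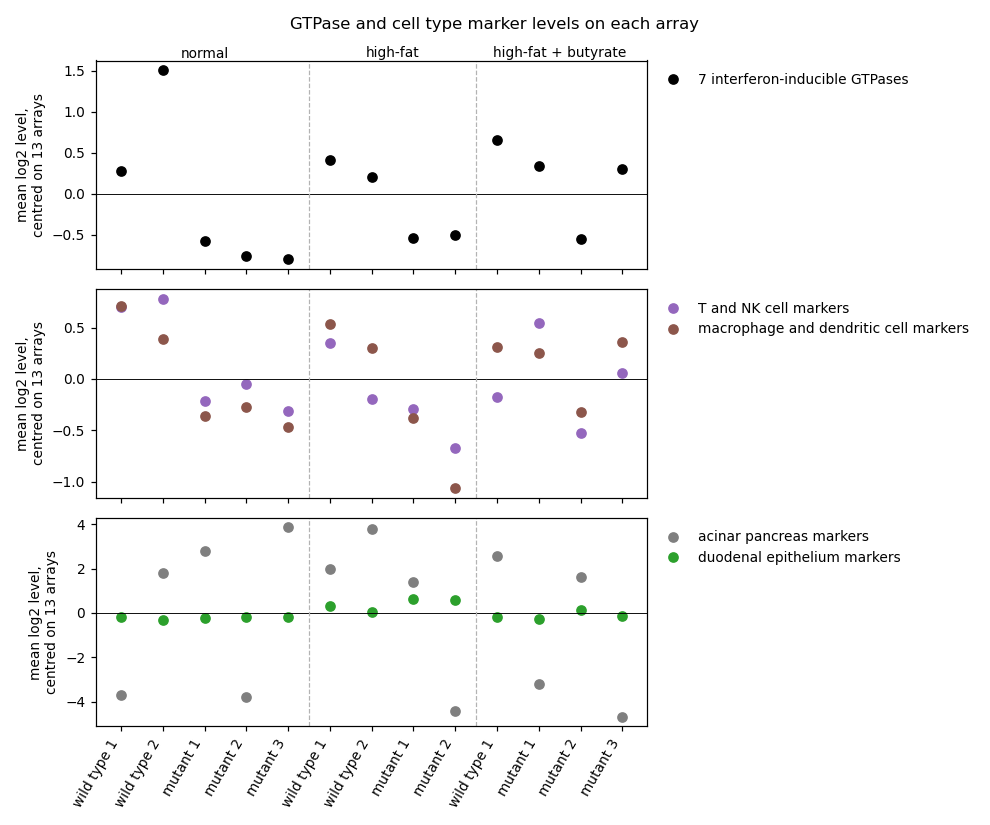
Mean log2 level on each of the 13 arrays (horizontal axis, grouped by diet), each list centred on its mean over the arrays (vertical axis), for the 7 GTPases (top), for immune cell markers (middle) and for acinar pancreas and epithelial markers (bottom); the 3 vertical scales differ. Wild-type array 2 on normal diet is the highest point for the GTPases at 1.51, mutant butyrate array 2 lies at -0.55 beside low immune markers, and acinar markers spread far more widely than any other list.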

How the data were processed

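RNA from duodenum was hybridised to 13 Affymetrix arrays. The authors deposited log2 values made by RMA with Affymetrix Expression Console 1.1, per the submitters' processing notes; RMA corrects background, quantile-normalizes and summarises probes. Quantile normalization sets all arrays to 1 distribution, so levels are relative to the other transcripts of an array. Per the labels' protocols the RNA was labelled with a kit meant for whole-transcript arrays, while the probe set names belong to a 3' array. No genome build for the probe sets is given in the sources used here. The mutated gene is not reported here.

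Of 22690 probe sets, 64 were controls, 691 had several symbols and 1555 had none; 12393 genes remained. Linear models were fitted in limma 3.58.1 under R 4.3.3, with eBayes moderation that follows mean intensity. Two-sided p-values were adjusted by Benjamini-Hochberg over all genes and called at 0.05. Every adjusted p comes from limma. Genotype was tested over 13 and 9 arrays with diet as a term, and 11 further comparisons used 6 group means (7 residual degrees of freedom). The number of arrays limits precision. The 5 genotype fits were tested on simulated data. The members and the 9 gene lists were chosen with earlier results of these data known. Named genes are the members; genes of the family and pathway lists that passed, with Ifng, its receptor, kinases and Irf factors whether or not they passed; and the 10 genes most like the members, before and after group means are removed. Clone-named and predicted genes are left out; marker examples were chosen after their values were seen. Alternatives were quantile normalization over probe sets, the mean of probe sets, genes under the 30th percentile left out, no trend, array weights, a replicate block, only the groups compared, Spearman's rho for likeness, and leaving out each array.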

Additional observations from a re-analysis of the deposited data

How the results depend on the processing

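Counts of members called moved by over 1.5 times in these cases. For genotype over 13 arrays, 1 was called without the intensity trend and 0 with the replicate block, and leaving out 1 array gave 0 to 4. Over 9 arrays the replicate block gave 2 and single arrays 2 to 6. On normal diet single arrays gave 0 to 5. High-fat against normal diet in mutants gave 5 with only the groups compared and 0 to 1 without single arrays; in wild type it gave 0 with the block, 0 with only the groups compared and 0 to 4. Butyrate in mutants gave 1 with dim genes left out, which removes Gbp8 by construction, 1 with the block and 1 to 4; in wild type it gave 0 with dim genes left out, 0 with only the groups compared and 0 to 2. Butyrate against normal diet in mutants gave 2 with array weights and 0 to 3. Of the high-fat differences in mutants, Gbp3 reversed to -0.0522 under quantile normalization and -0.116 with array weights. Iigp1 reversed to 0.0143 for butyrate in mutants with the mean of its probe sets. Without single arrays, signs turned as follows. In wild type, high-fat minus normal diet ran from -1.20 to 0.13 (Ifi47), -1.54 to 0.71 (Igtp), -1.27 to 0.70 (Irgm1), -1.004 to 0.81 (Iigp1) and -0.40 to 0.0685 (Gbp3), and in mutants from -0.13 to 0.28 (Gbp3). Butyrate in mutants ran from -0.30 to 0.0570 (Igtp) and -0.29 to 0.13 (Irgm1), and in wild type from -0.0685 to 0.26 (Irgm1). Genotype with butyrate ran from -0.32 to 0.0186 (Iigp1). The interaction of high-fat and normal diet ran from -0.21 to 1.77 (Irgm1), -0.24 to 1.57 (Iigp1) and -0.0523 to 0.44 (Gbp3). That of butyrate and high-fat diet ran from -0.38 to 0.0376 (Irgm1), -0.33 to 0.11 (Gbp2) and -0.0938 to 0.65 (Gbp8), and that of butyrate and the mean of the others from -0.29 to 0.69 (Irgm1). None of the reversed values passed the test. Same-numbered arrays of the genotypes did not deviate together (r = -0.243 and -0.326 on normal diet, 0.0121 on high-fat diet, where 2 arrays a group allow only 1 value), so the numbers were not taken to pair them. On high-fat diet the identifiers of array 2 hold an equal number in both genotypes, whose meaning no source states. By Spearman's rho, 3 of the 10 genes most like the members stayed, and 1 of the 10 once group means were removed. Of the values for single members or genes, 1582 kept direction and side of the threshold, 66 lost a call, 42 gained one and 26 reversed. The cause of these shifts was not tested beyond the fewer arrays or genes in a fit. Precision is limited by how few arrays each group holds.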
